A study of Homo sapiens with 3 samples.

Results

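The simple epithelial keratins described here are KRT7, KRT8, KRT18, KRT19, KRT80 and KRT81, 6 of the 33694 genes in the deposited matrices, taken by their symbols. They were measured by droplet single-cell RNA sequencing in BxPC-3, a cell line from a ductal adenocarcinoma of the human pancreas. For the study, BxPC-3 cells with stable EGFP and cells with stable mCherry had been combined 1 to 1 and held in suspension culture, which induces cell-in-cell structures, in which 1 cell lies inside another. Cells sorted with both signals were the double-positive population (EGFP+/mCherry+), cells sorted with 1 signal the single-positive population (EGFP+/mCherry- or EGFP-/mCherry+), and parental BxPC-3 cells served as the reference. Cells of all 3 were expanded and trypsinized before loading. The labels do not say whether the parental cells carried a fluorescent protein or were held in suspension, nor whether cells of either colour went into the single-positive library together. Each population gave 1 library, so differences between populations have no replicate check and none was tested. Cells were taken as barcodes with at least 6500 unique molecular identifiers (UMIs), which gave 2409 parental, 1291 single-positive and 1940 double-positive cells.

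Keratins build intermediate filaments, the ropes that give epithelial cells their mechanical strength. A filament needs a type I and a type II chain in equal amount, because the unit of assembly is a dimer of both kinds, and chains without a partner are degraded. In simple epithelia, such as the pancreatic duct, the pair is KRT8 (type II) with KRT18 (type I), joined by KRT7 (type II) and KRT19 (type I). KRT19 is the smallest of these keratins and lacks most of the tail. KRT80 is a type II epithelial keratin outside this core set, and KRT81 is a type II keratin known from hair that some carcinoma lines also express.

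Positions are from GENCODE 29 on GRCh38. KRT80 (ENSG00000167767) lies on chromosome 12 at 52168996 to 52192000, KRT7 (ENSG00000135480) at 52232520 to 52252186 and KRT81 (ENSG00000205426) at 52285913 to 52291534. On the same chromosome KRT8 (ENSG00000170421) spans 52897187 to 52949954 on the minus strand, and KRT18 (ENSG00000111057) spans 52948871 to 52952901 on the plus strand. KRT19 (ENSG00000171345) lies on chromosome 17 at 41523617 to 41528308. The annotated KRT8 and KRT18 genes overlap over 1084 bases on opposite strands. KRT7 overlaps the hair keratin KRT86 over 2887 bases on the same strand, and all 5622 bases of KRT81 lie inside the span of KRT86 on the opposite strand.

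How far a count can be given to 1 keratin depends on how alike the transcripts are, so the most alike coding stretches of 60 bases within 1 exon are shown for KRT18 with KRT19 and for KRT81 with KRT86, read from the GENCODE 29 transcripts. Capitals mark the bases at which the 2 sequences of a pair differ.
The KRT18 stretch (chr12:52949408-52949467, plus strand) and the KRT19 stretch (chr17:41527954-41528013, minus strand) are both in exon 1 and share 51 of 60 bases.
KRT18: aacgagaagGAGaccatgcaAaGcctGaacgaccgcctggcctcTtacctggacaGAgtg
KRT19: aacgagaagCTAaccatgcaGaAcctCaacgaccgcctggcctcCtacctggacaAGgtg
For KRT81 (chr12:52291346-52291405, minus strand) and KRT86 (chr12:52301977-52302036, plus strand) the stretch is in exon 1 of both and identical in all 60 bases.
KRT81: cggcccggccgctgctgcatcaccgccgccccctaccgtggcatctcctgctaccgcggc
KRT86: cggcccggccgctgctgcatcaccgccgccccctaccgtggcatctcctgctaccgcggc

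The longest exact run shared by the main transcripts was 41 bases for KRT7 and KRT8, 17 bases for KRT18 and KRT19 and 605 bases for KRT81 and KRT86. Among the members it was 65 bases or less, with the 65 shared by KRT8 and KRT80. In the first 500 bases, where the 5' kit places its reads, no word of 90 bases of KRT7, KRT8, KRT18, KRT19 or KRT80 occurred in a transcript of another gene. For KRT81, 68.6% of such words did, so its UMIs cannot be told apart from those of KRT86 over much of that stretch. With words of 50 bases the share in the first 500 bases was 12% for KRT8 and 14.4% for KRT18, whose copies are mostly processed pseudogenes. The annotation names 50 pseudogenes of KRT8 and 67 of KRT18, and none of them is a feature of the matrices. The sources used here do not give the read length, and counts of KRT8 and KRT18 carry this uncertainty.

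The libraries held 51637677 to 65107147 UMIs, of which 97.7 to 98% were in the cells used, and the median cell had 23290 UMIs in the parental, 38137 in the single-positive and 29963 in the double-positive library. The mitochondrial share of UMIs had a median of 0.947%, 1.3% and 2.08% in that order, and 31.8%, 21.8% and 6.19% of cells were below 0.5%. Of the cell barcodes, 1 was shared by double-positive and single-positive cells, 1 by single-positive and parental cells and 6 by double-positive and parental cells. Summed over 8 epithelial markers that are not keratins, such as EPCAM and CDH1, expression was 2628 to 3300 CPM (counts per 1000000 UMIs), and none was at 0 in any library. Fibroblast markers together reached 2.70 to 3.28 CPM, immune markers 3.82 to 5.46 CPM and acinar markers at most 0.0164 CPM. Endothelial, endocrine and red cell markers were each below 0.5 CPM in sum, and 4 of 5 acinar markers were at 0 in the parental and double-positive libraries and all 5 in the single-positive library.

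KRT7 was the most abundant member in all 3 libraries. It stood at 2689 CPM in the parental library (171531 UMIs, exact Poisson interval 2677 to 2702 CPM), at 2816 CPM in the single-positive library (2801 to 2830) and at 2317 CPM in the double-positive library (2305 to 2329). The double-positive library was the lowest and lay outside the intervals of the other two. Intervals of levels and of ratios between libraries are at 95% and cover counting error only, and UMIs count molecules, so CPM values of different genes are compared without scaling by length.

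KRT19 followed, with 2264 CPM in the parental library and 2270 and 2218 CPM in the single-positive and double-positive libraries. Of the 4 abundant members it was the one with the closest values across libraries. KRT18, the type I partner of KRT8, stood at 1815 CPM, 1825 CPM and 1682 CPM in the same order, again lowest in double-positive cells. KRT8, the type II partner of KRT18, was at 988, 1127 and 972 CPM in the same order, highest in the single-positive library.

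The order KRT7, KRT19, KRT18, KRT8, KRT80, KRT81 was the same in each library. KRT7 exceeded KRT19 by 1.19-fold in parental cells (exact conditional interval 1.18 to 1.2), by 1.24-fold in single-positive cells and by 1.04-fold in double-positive cells, where the interval also lay above 1. KRT19 exceeded KRT18 by 1.24 to 1.32-fold, and KRT18 exceeded KRT8 by 1.62 to 1.84-fold. The 6 genes together made up 0.777% of the UMIs of parental cells, 0.805% of those of single-positive and 0.720% of those of double-positive cells.

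KRT80 was far below this core, at 11.4 CPM in the parental library (727 UMIs, interval 10.6 to 12.3), 11.4 CPM in the single-positive library (573 UMIs, 10.4 to 12.3) and 11 CPM in the double-positive library (672 UMIs, 10.2 to 11.9). The 3 intervals overlap. KRT81 was barely detected, with 19, 12 and 19 UMIs, or 0.298, 0.238 and 0.311 CPM. The 19 parental UMIs lay in 10 cells, while the 19 double-positive UMIs lay in 16 cells. KRT86, whose transcript is alike to that of KRT81 over much of its first 500 bases, had 63, 43 and 66 UMIs, and KRT83, a neighbouring hair keratin, had 10, 3 and 9. KRT81 gave too few UMIs for any comparison of cells, and its log2 ratios between libraries had wide intervals: 0.39 (-0.73 to 1.56) for double-positive over single-positive, -0.32 (-1.50 to 0.79) for single-positive over parental and 0.06 (-0.94 to 1.06) for double-positive over parental cells.

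**Figure D1:**
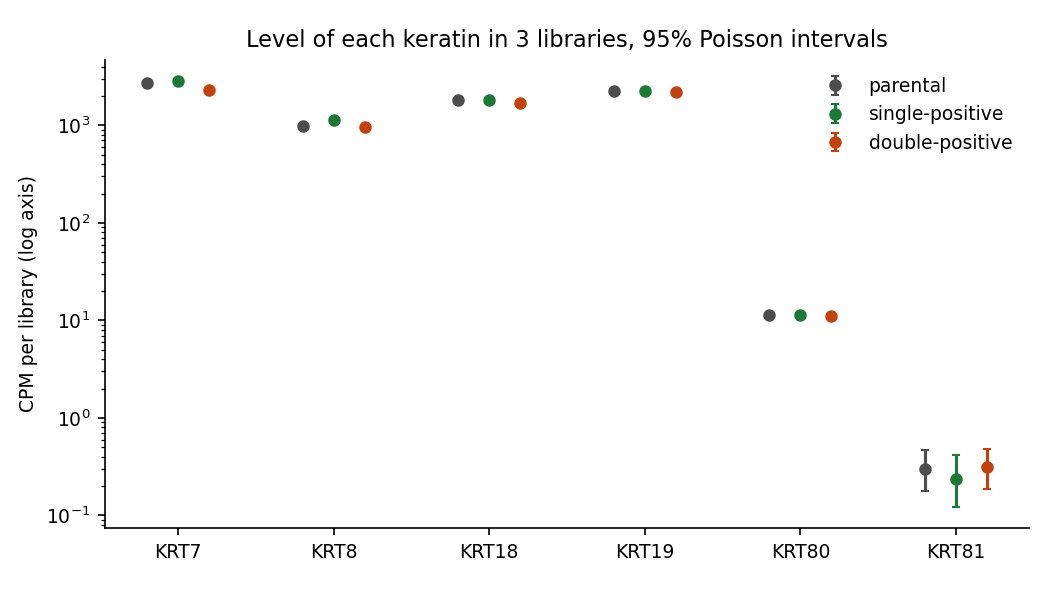
Level of the 6 keratins (x axis) in CPM on a log axis (y axis), 1 point per library, with 95% exact Poisson intervals on the summed UMIs. KRT7, KRT8, KRT18 and KRT19 lie between 972 and 2816 CPM, KRT80 near 11 CPM and KRT81 below 0.5 CPM in every library.

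Double-positive cells were set against single-positive cells, which went through the same mixing and sorting, to see what goes with carrying both colours. KRT7 was 1.22-fold lower in double-positive cells, with a log2 ratio of -0.28 (exact conditional binomial interval -0.29 to -0.27). Of the 5 members above 10 CPM it was the 1 at least 1.2-fold apart, and 4.92% of the 7687 genes averaging 10 CPM or more were that much lower. KRT8 had -0.21 (-0.23 to -0.20) and KRT18 -0.12 (-0.13 to -0.10). KRT19 had -0.03 (-0.04 to -0.02), and KRT80 had -0.05 with an interval from -0.21 to 0.12. All 5 members above 10 CPM were on the lower side, where 56.5% of all genes were. None of the 5 was 1.5-fold apart, a size that 0.325% of genes reached on the lower and 0.234% on the higher side. The median of the 5 members was -0.12, beside -0.02 over all genes.

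The KRT7 ratio stayed between -0.29 and -0.24 over 11 alternative settings. It was at least 1.2-fold lower in 7 of them and short of that size in 4. It was -0.25 among barcodes with 0.5% to 20% mitochondrial UMIs, and -0.24 in a shared range of 22974 to 32998 UMIs per cell. The KRT8 ratio was -0.40 in that range, which left 142 single-positive cells. There 10.7% of all genes were at least 1.2-fold lower in double-positive cells and 12.7% higher. In the same range KRT18 had -0.19 and KRT19 -0.08, so the 4 abundant members were lower in double-positive cells there too. KRT80, with few UMIs, was above 0 in 1 of the 11 alternatives, at 0.09 among barcodes with 0.5% to 20% mitochondrial UMIs. With median-of-ratios scaling the background shifted, with 3.86% of genes at least 1.2-fold lower and 3.49% higher, against 4.92% and 2.54% with scaling by all UMIs.

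Single-positive cells were set against parental cells, to see how cells of the mixed culture with 1 colour differ from the starting line. Of the 5 members above 10 CPM, KRT8 was farthest apart, 1.14-fold higher in single-positive cells, with a log2 ratio of 0.19 (0.17 to 0.21). KRT7 had 0.07 (0.06 to 0.08). KRT18 had 0.01 and KRT19 0.00, with intervals that reached 0, and KRT80 had -0.01 (-0.17 to 0.15). None of the 5 was 1.2-fold apart, a size that 7.75% of genes passed on the higher and 2.58% on the lower side (4.23% and 4.74% with median-of-ratios scaling). Of the 5 members, 4 were on the higher side, where 62.8% of all genes were, and 1 on the lower side, where 37.2% were. The members' median of 0.01 lay beside 0.05 over all genes.

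The KRT8 ratio was the one that moved most between subsets of cells. In the bottom quartile of the G2M list and below the median of the S list, lists of cell cycle genes described with the quartiles later, it was -0.01 over 519 parental and 254 single-positive cells. Among barcodes with 0.5% to 20% mitochondrial UMIs it was 0.12, and in the shared UMI range it was 0.28. In the shared UMI range KRT19, too, moved, to 0.12 from 0.00 over all cells. The part of cell cycle, depth and mitochondrial share in these values was not tested further.

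Double-positive cells were also set against parental cells, and this comparison shares a library with each of the others. KRT7 was 1.16-fold lower in double-positive cells, with a log2 ratio of -0.22 (-0.23 to -0.21), and KRT18 1.08-fold lower with -0.11 (-0.12 to -0.10). KRT8 had -0.02 (-0.04 to -0.01), KRT19 -0.03 (-0.04 to -0.02) and KRT80 -0.05 (-0.21 to 0.10). None of the 5 was 1.2-fold apart, and 2.86% of genes were that much lower and 3.29% higher. All 5 members were on the lower side, where 41.6% of all genes were, and their median was -0.05 beside 0.03 over all genes.

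In this comparison KRT7 ranged from -0.27 to -0.16 over the 11 alternatives, and KRT18 from -0.14 to -0.05, with the value nearest 0 for both among barcodes of 0.5% to 20% mitochondrial UMIs. KRT8 was at -0.26 among cells low in both cell cycle lists, and -0.11 in the shared UMI range and among barcodes of 0.5% to 20% mitochondrial UMIs. KRT19 turned to 0.04 in the shared UMI range and was -0.13 among cells low in both lists. KRT80, with few UMIs, was at -0.39 in those cells.

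**Figure D2:**
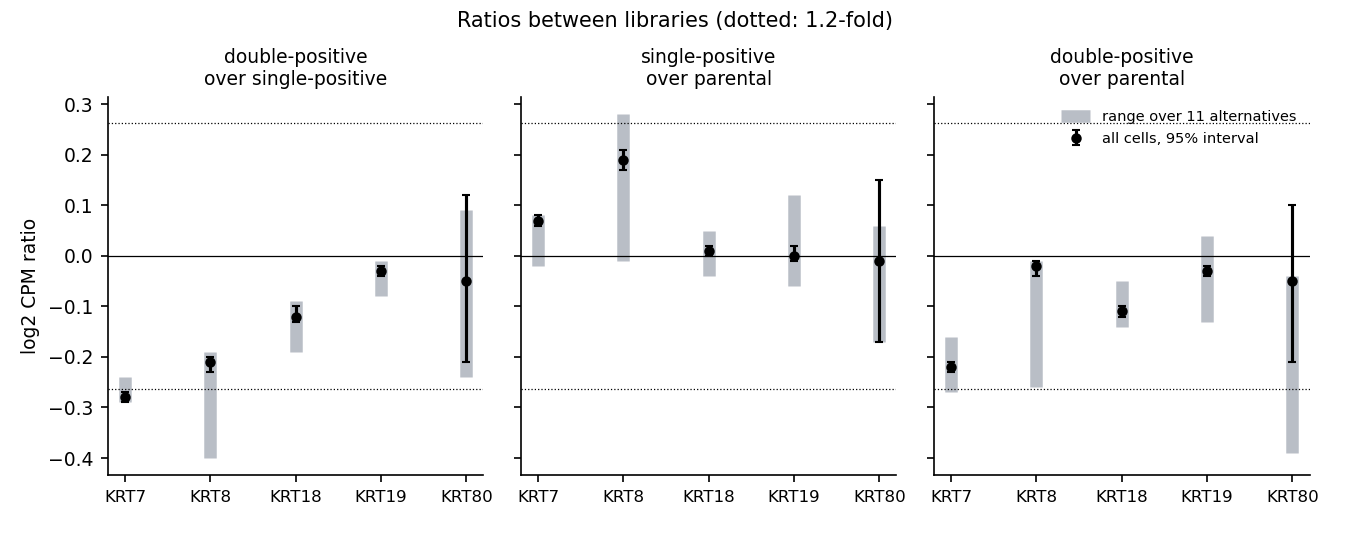
Log2 CPM ratio (y axis) of 5 keratins (x axis) in each comparison of libraries; points are all cells with 95% exact intervals, grey bars the range over 11 alternative settings, and dotted lines 1.2-fold. KRT7 is below 0 in both comparisons of double-positive cells under every setting plotted, while the bars of all 5 keratins reach both sides of 0 in single-positive against parental cells.

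The ratios between partners were then measured inside single cells. These ratios still differed with depth, since KRT8 was lower and KRT18 higher in deeper cells, with the values by depth quartile given with the cell cycle lists. KRT8 was outnumbered by KRT18, its type I partner: the median log2 ratio of KRT8 over KRT18, with 0.5 added to each count, was -0.89 over parental cells (interval of the median -0.94 to -0.84), -0.70 over single-positive cells (-0.76 to -0.66) and -0.83 over double-positive cells (-0.87 to -0.80). The interquartile range of the parental cells ran from -1.52 to -0.30. KRT8 exceeded KRT18 in 13.7%, 14.1% and 13% of cells. Intervals of a median describe the cells of 1 library and do not cover the spread between libraries of a population, which was not measured.

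KRT7 and KRT19 were closer to even. The median log2 ratio of KRT7 over KRT19 was 0.22 over parental cells (0.17 to 0.26), 0.25 over single-positive cells (0.20 to 0.31) and -0.03 over double-positive cells (-0.09 to 0.04). KRT7 exceeded KRT19 in 59% of parental cells, 63.5% of single-positive cells and 48.5% of double-positive cells. In the double-positive library the interval of the median included 0. KRT7 over KRT8, both of type II, had medians of 1.45, 1.28 and 1.23, and KRT19 over KRT18, both of type I, had 0.33, 0.34 and 0.42.

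Summed, the 4 type II members reached 0.904 of the UMIs of the 2 type I members in the parental, 0.966 in the single-positive and 0.846 in the double-positive library. The median cell had a log2 ratio of type II over type I of -0.21 (-0.25 to -0.18), -0.08 (-0.11 to -0.04) and -0.34 (-0.37 to -0.30). Type II UMIs outnumbered type I in 37.3%, 42.7% and 31.6% of cells. These sums leave out KRT5 and KRT6A of type II and KRT17 and KRT13 of type I, which the cells also expressed.

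The spread of these shares was wider than drawing UMIs at random would give. For KRT8 as a share of KRT8 plus KRT18, in cells with at least 10 UMIs of the pair, the mean was 35.1%, 37.7% and 35.9% and the standard deviation 13.7, 12.1 and 12.9 percentage points. The binomial part was 6.80, 5.88 and 6.29 points, so 75.2 to 76.2% of the variance lay beyond it. In cells thinned to 6500 UMIs the share was 49.6%, 42.8% and 45.5%, and the spread beyond the binomial part 11.5, 9.89 and 10.8 points. The spread left after removing the binomial part was 11.8, 10.5 and 11.3 points for this pair and 14.6, 13.4 and 15.3 points for KRT7 with KRT19. It was 14.0, 13.5 and 14.0 points for KRT19 with KRT18 and 12.3, 11.6 and 13.2 points for KRT7 with KRT8. In each library the KRT8 and KRT18 pair had the narrowest of these 4 spreads, though its mean share was also farther from 50% than those of KRT7 with KRT19 and KRT19 with KRT18.

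For the spread of each gene across cells, every cell was thinned to 6500 UMIs. KRT7 had a median of 15 UMIs per thinned parental cell (5th to 95th percentile 4 to 38), 17 per single-positive cell (5 to 35) and 13 per double-positive cell (3 to 33). KRT19 had medians of 13, 14 and 13, and KRT18 of 11, 11 and 10. KRT8 had medians of 5, 7 and 5, with single cells reaching 67, 80 and 48 UMIs. The ranges of the 3 libraries overlapped for every member.

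Nearly all cells held the 4 abundant keratins at that depth. KRT18 was without a UMI in 5, 2 and 4 cells, KRT19 in 8, 1 and 10 and KRT7 in 14, 3 and 10, while KRT8 was without one in 60 parental (2.49%), 20 single-positive (1.55%) and 47 double-positive cells (2.42%). KRT80 had a UMI in 6.27% of thinned parental cells (exact Clopper-Pearson interval 5.33 to 7.31%), 6.51% of the single-positive ones (5.22 to 7.99%) and 5.93% of the double-positive ones (4.92 to 7.07%). Without thinning the shares for KRT80 were 18.2%, 23.2% and 19.1%, in the order of depth. No cell type without keratins was present to set a background, but barcodes with at most 100 UMIs held 5, 7 and 6 UMIs of KRT80 in all, or 6.71 to 8.19 CPM, too few to set a background.

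KRT8 was the most variable of the abundant members and KRT18 the least. The squared coefficient of variation beyond Poisson noise (variance minus mean, over the squared mean) of KRT8 was 0.583, 0.492 and 0.444 in parental, single-positive and double-positive cells. That of KRT18 was 0.154, 0.142 and 0.186. KRT7 had 0.343, 0.237 and 0.380, and KRT19 0.275, 0.241 and 0.235. The median over the 1583 genes of at least 100 CPM was 0.122, 0.114 and 0.126, below all 4 keratins. Of the 226 genes within 2-fold of the level of KRT8, 21, 24 and 26 varied more than it, in the same order. The tenth of cells with most KRT8 held 28.8%, 26.1% and 27.0% of its thinned UMIs, against 20.2%, 19.9% and 20.8% for KRT18. The 2 partners of the KRT8 and KRT18 pair thus lay at the opposite ends of this measure among the 4 members.

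**Figure D3:**
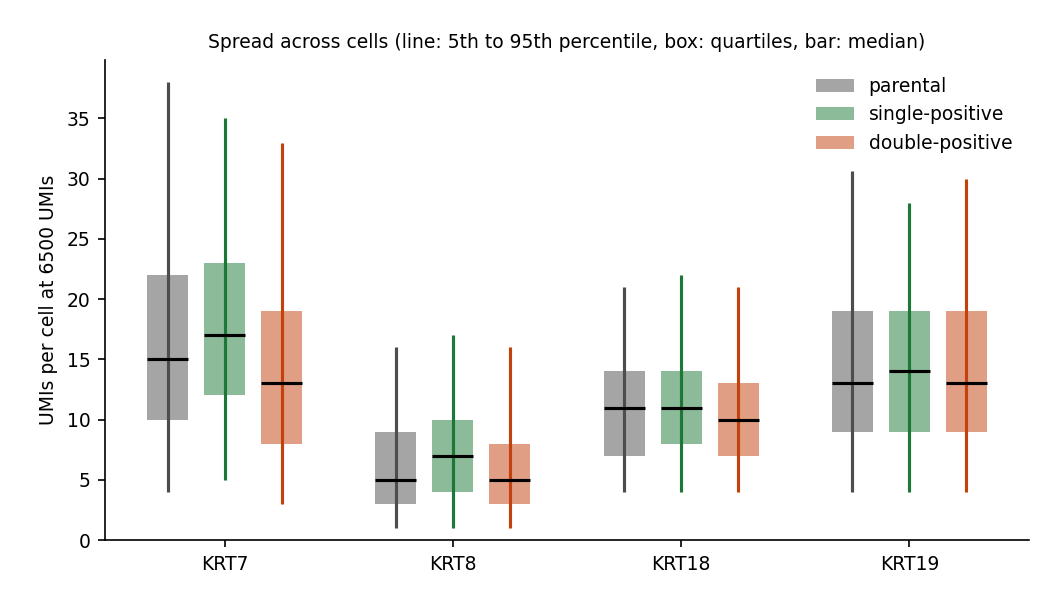
UMIs per cell of 4 keratins (x axis) after thinning each cell to 6500 UMIs (y axis), by library; boxes are quartiles, black bars medians and lines the 5th to 95th percentile over 2409 parental, 1291 single-positive and 1940 double-positive cells. Medians of KRT7 are 15, 17 and 13 UMIs, and the boxes of the 3 libraries overlap for each gene.

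Cells with much of one keratin did not always have much of the others. Correlations across thinned cells are given within each library, with the Poisson part of each variance removed, as a description: cells of a library share their source, their cell cycle and their total, which was fixed at 6500. KRT8 and KRT18 had the highest values on this scale, with 0.51, 0.63 and 0.54 in parental, single-positive and double-positive cells (0.36, 0.44 and 0.38 without the removal). That order was not kept on every scale in parental cells: without the removal KRT7 and KRT8 also had 0.36, and on log2(thinned UMIs + 1) KRT8 and KRT18 had 0.27, below KRT7 and KRT8 (0.32) and KRT8 and KRT19 (0.29). With the Poisson part removed, KRT7 and KRT8 had 0.44, 0.40 and 0.42, and KRT8 and KRT19 0.44, 0.42 and 0.39. KRT7 and KRT19 had 0.32, 0.35 and 0.26. KRT18 had low values with the other 2 abundant members, 0.18, 0.20 and 0.19 for KRT7 and 0.09, 0.13 and 0.08 for KRT19. With the sparse KRT80, whose values rest on 2 to 4 UMIs at most in a thinned cell, KRT18 had 0.36, 0.35 and 0.16, and KRT8 0.37, 0.44 and 0.32. KRT7 had 0.36, 0.32 and 0.40 with KRT80, and KRT19 had 0.13, 0.11 and 0.03.

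Pairs were also compared in levels, where their order was not the same as by correlation. From the bottom to the top quartile of cells ranked by KRT8, the mean of KRT8 went from 1.77 to 14.0 thinned UMIs in parental cells, and KRT18 from 9.92 to 13.6, a factor of 1.37. The factors were 1.45 and 1.46 in the single-positive and double-positive libraries. KRT19 was 1.53, 1.43 and 1.43 times higher over the same ranking. The largest factors were those of KRT8 in cells ranked by KRT7, at 1.99, 1.69 and 1.75. Ranked by KRT18, from 5.28 to 18.8 UMIs in parental cells, KRT19 differed by a factor of 1.06, and by 1.04 and 1.07 in the other libraries. In the bottom quartile of cells by mitotic RNA, the G2M list described with the quartiles, the correlation of KRT8 and KRT18 was 0.67, 0.78 and 0.63, above its value over all cells in each library. Other pairs were higher there as well, with 0.27, 0.32 and 0.34 for KRT7 and KRT18 and 0.19, 0.25 and 0.16 for KRT18 and KRT19.

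**Figure D4:**
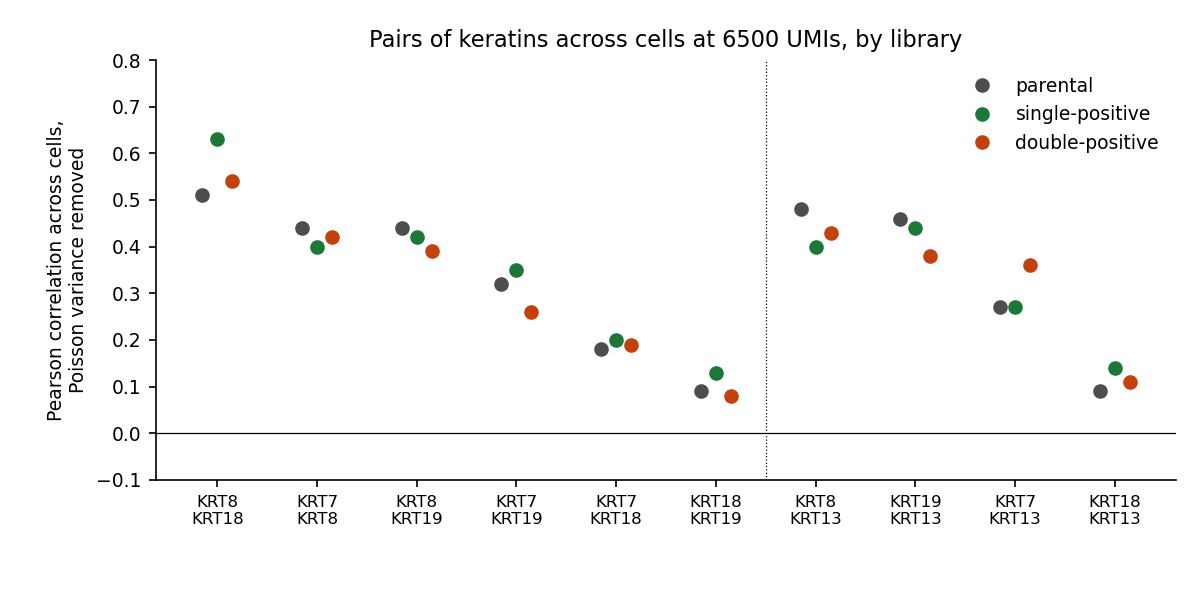
Pearson correlation across cells, after removal of the Poisson variance (y axis), for pairs of keratins (x axis), 1 point per library; pairs to the right of the dotted line include the mucosal keratin KRT13. Among the pairs of abundant members, which are those plotted, KRT8 with KRT18 is highest at 0.51 to 0.63 and KRT18 with KRT19 lowest at 0.08 to 0.13.

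Outside the 6 members, the gene most like them was KRT13, a type I keratin of mucosal stratified epithelium. Over 2861 genes of at least 50 CPM, mitochondrial and ribosomal protein genes left out, likeness was the mean over 3 libraries of the Pearson correlation of log2(thinned UMIs + 1). KRT13 ranked first for the members summed (0.40), for KRT8 (0.33) and for KRT7 (0.25), and it was second for KRT19 (0.36). For the sum it was followed by S100P, a calcium-binding protein (0.34), CEACAM6, a surface glycoprotein (0.34), WFDC2, a secreted whey acidic protein (0.33), and MDK, the growth factor midkine (0.31). In the single libraries KRT13 was at 0.38, 0.42 and 0.40.

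The members had different neighbours. KRT7 was nearest to KRT13, WFDC2 (0.25) and LGALS3, which encodes galectin-3 (0.24), and KRT8 to KRT13, S100P (0.29) and CEACAM6 (0.28). KRT19 was nearest to AQP3, a water and glycerol channel (0.36), KRT13 and FXYD3, a regulator of the sodium pump (0.31). KRT18 had no such neighbour: its highest values were 0.16 for GAPDH, a glycolytic enzyme, 0.15 for H3F3B, which encodes histone H3.3, and 0.15 for UBE2S, a ubiquitin-conjugating enzyme of mitosis. KRT80 was nearest to GPRC5A (0.16), LCN2 (0.15) and WFDC2 (0.15), and KRT81 to TSTD1 (0.06), RAB11FIP1 (0.05) and MED30 (0.05), values too low in such sparse counts to describe a relation. At the other end, the metallothioneins MT2A (-0.38) and MT1X (-0.26) and the ferritin light chain FTL (-0.25) were the genes most opposed to the members summed.

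Keratin levels differed between cells rich and poor in cell cycle RNA, and in different directions for different members. Cells were ranked within each library by the summed thinned UMIs of 20 G2 and mitosis genes such as CDK1, TOP2A and PLK1 (the G2M list), and the top quartile was set against the bottom one. KRT19 went from 2851 CPM in the bottom to 1993 CPM in the top quartile of parental cells, from 2713 to 2049 CPM in single-positive cells and from 2676 to 1998 CPM in double-positive cells. The log2 ratios were -0.52, -0.41 and -0.42. KRT7 went from 3221 to 2356, from 3206 to 2469 and from 2696 to 1945 CPM, with log2 ratios of -0.45, -0.38 and -0.47. KRT18 went the other way, from 1703 to 1884, from 1720 to 1967 and from 1547 to 1813 CPM (0.15, 0.19 and 0.23). KRT8 was lower in the top quartile, with log2 ratios of -0.37, -0.18 and -0.10. KRT7, KRT8 and KRT19 were thus lower and KRT18 higher in cells rich in mitotic RNA in 3 of 3 libraries. The share of all genes lower or higher between these quartiles was not measured. The top quartile was also deeper, with medians of 28199 against 19838 UMIs in parental cells. After thinning, the log2 ratios of KRT7 were -0.48, -0.40 and -0.46, those of KRT19 -0.54, -0.40 and -0.46, and those of KRT18 0.13, 0.22 and 0.31. KRT80 had -0.51, -0.21 and -0.01, and its thinned values of -0.14, 0.36 and 0.46 differed in sign between libraries.

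**Figure D5:**
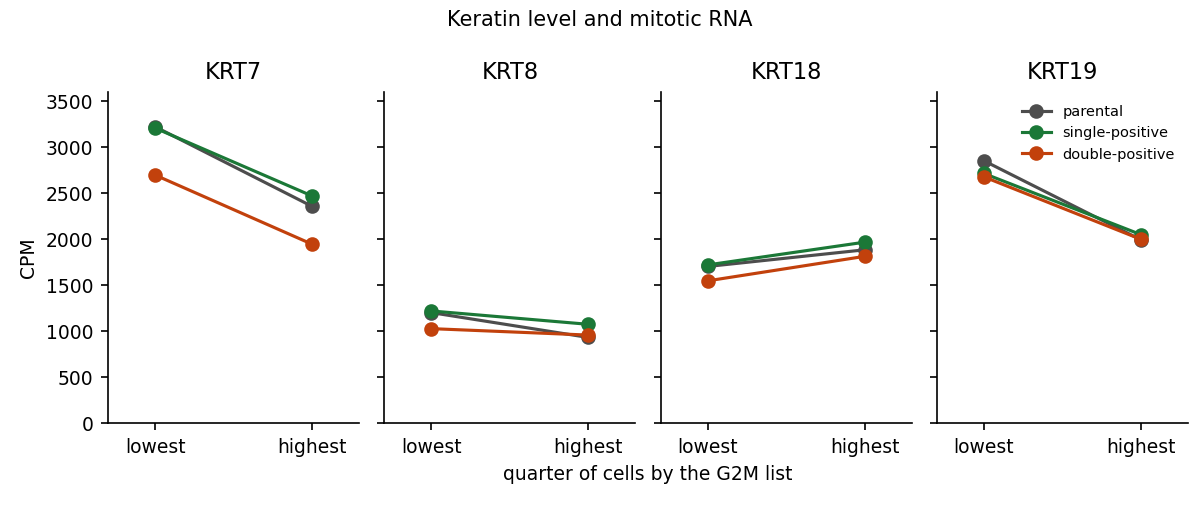
CPM of 4 keratins (y axis, from 0) in the bottom and top quartile of cells by the G2M list (x axis), 1 line per library, 602 parental, 322 single-positive and 485 double-positive cells at each end. The lines of KRT7 and KRT19 run down and those of KRT18 up in all 3 libraries.

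By 20 genes of DNA replication such as MCM2 and PCNA (the S list), KRT19 was again lower in the top than in the bottom quartile, with log2 ratios of -0.39, -0.35 and -0.29. KRT7 had -0.23 in parental cells and -0.06 and -0.07 in the others, and KRT18 -0.09, -0.07 and -0.06. By depth, KRT8 was lower in the deepest quartile of cells, with log2 ratios of -0.40, -0.24 and -0.24, and KRT18 higher, with 0.22, 0.11 and 0.15. KRT7 hardly differed, with 0.00, 0.06 and -0.01. By mitochondrial share, KRT7 and KRT18 were lower in the top than in the bottom quartile. KRT7 had log2 ratios of -0.24, -0.15 and -0.21 and KRT18 of -0.29, -0.15 and -0.25, while KRT19 had 0.06, 0.22 and 0.11. KRT8 had 0.14, 0.15 and -0.08. The double-positive library, with the highest mitochondrial share, had the lowest value of each of the 5 members above 10 CPM, with overlapping intervals for KRT80. With mitochondrial UMIs left out of the total, KRT7 in double-positive cells had log2 ratios of -0.27 to single-positive and -0.20 to parental cells. In the same order, KRT8 had -0.20 and -0.01, KRT18 -0.10 and -0.09, KRT19 -0.02 and -0.01 and KRT80 -0.04 and -0.04. The part of that share in the differences was not tested beyond these values and those among barcodes of 0.5% to 20% given above.

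Other keratins and proteins that hold the filaments were read as background to the members. Of 26 stratified and other keratins, 9 had at least 10 CPM, led by KRT17, a keratin of stressed and basal epithelium, at 7175, 6778 and 6733 CPM in parental, single-positive and double-positive cells. KRT6A stood at 1282, 1467 and 1334 CPM and KRT5, the basal type II keratin, at 715, 950 and 848 CPM. In double-positive against single-positive cells KRT23 had a log2 ratio of 0.91 and KRT4 -1.14. Both were past 1.5-fold, as were 0.234% of all genes on the higher and 0.325% on the lower side. In double-positive against parental cells KRT4 had -1.35, KRT6B -0.73 and KRT23 0.77. There 0.286% of all genes were at least 1.5-fold lower and 0.234% higher. Across cells KRT17 went with KRT19 (0.32, 0.27 and 0.36) and less so with KRT7 (0.25, 0.13 and 0.22) and KRT8 (0.22, 0.05 and 0.17). It went against KRT18 (-0.15, -0.11 and -0.10). None of 12 hair keratins reached 10 CPM.

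Of 18 plakin and desmosome genes, which anchor keratin filaments at junctions, 13 had at least 10 CPM. All 13 were higher in double-positive than in parental cells and 12 in single-positive than in parental cells, with medians of 0.11 and 0.13 beside 0.03 and 0.05 over all genes, where 58.4% and 62.8% of genes were on the higher side. None was 1.5-fold apart. DSP, the desmosomal plakin, was at 263, 322 and 285 CPM, PLEC, which encodes plectin, at 246, 295 and 250 CPM, and PERP at 1038, 1018 and 1119 CPM. Of the other intermediate filament genes, 4 of 14 had at least 10 CPM, and VIM, which encodes vimentin of mesenchymal cells, stood at 37.3, 77.5 and 35.0 CPM, far below KRT8 in every library. Genes for keratin-binding proteins had 13 of 16 members above 10 CPM and medians of 0.01, 0.03 and -0.03 in the 3 comparisons, in the order given above, with SFN, a 14-3-3 protein, highest at 2443, 2263 and 2360 CPM. Epithelial transcription factors had 13 of 20 members above 10 CPM and medians of 0.04, 0.07 and 0.11. Among them KLF5 was at 154, 175 and 176 CPM, EHF at 118, 137 and 152 CPM and TP63 at 76.3, 99 and 97.7 CPM, and none was 1.5-fold apart.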

How the data were processed

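The deposited matrices hold raw counts of UMIs per gene and barcode from 3 libraries made with the 10x 5' kit, per the labels' protocols. The matrices carry a Cell Ranger signature per the file headers. Seurat 4.0.6 is listed beside Cell Ranger 4.0.0 in the submitters' processing notes, with the build GRCh38. Which annotation was used for counting is not stated there. Each lists 737280 barcodes. UMIs of barcodes with at least 6500 UMIs were summed per library and scaled to CPM; 21, 4 and 5 barcodes lay within 10% above that minimum and 19, 4 and 9 within 10% below it, in parental, single-positive and double-positive cells. No doublet caller was run and no barcode was removed as a doublet. None exceeded 20% mitochondrial UMIs.

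Levels have exact Poisson and ratios exact conditional binomial (Clopper-Pearson) intervals at 95%. No p-value is given, as each group has 1 library. The background was all genes averaging 10 CPM or more (7687 of 33694; 5 of 6 members). Cells were thinned to 6500 UMIs without replacement; no cell was shallower. Named were all members, KRT83 and KRT86, of each list the 3 highest genes and up to 4 past 1.5-fold, and the genes of highest likeness (3 per member, 5 for the sum, with the 3 lowest for the sum). The members and lists were chosen with earlier results of these data known. Alternatives changed the cell minimum, thinning, weighting, scaling, mitochondrial limits, depth, ambient RNA and cell cycle. The steps were tested on simulated data. Tables were made with pandas 2.3.3 and scipy 1.17.1 on numpy 2.4.6 under Python 3.11.15, and plots with matplotlib 3.10.9. A further stretch of sequence is not reported here.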

Additional observations from a re-analysis of the deposited data

How the results depend on the processing

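No paired analysis was possible because each group has 1 library, and the replicate number in the labels is 1 for all. The number of members at least 1.2-fold apart in double-positive against single-positive cells was 1, and 0 with median-of-ratios scaling, among barcodes of 0.5% to 20% mitochondrial UMIs and among cells low in both cell cycle lists. In single-positive against parental cells it was 0, and 1 (KRT8) in the shared UMI range, where 10.4% of all genes were that much higher and 13.7% lower. In double-positive against parental cells it was 0, and 2 (KRT7 at -0.27 and the sparse KRT80 at -0.39) among cells low in both lists, beside 6.15% of genes lower and 9.86% higher. The other 28 of these 33 counts kept their number but not always the member: in the shared UMI range the 1 in double-positive against single-positive cells was KRT8 (-0.40) and not KRT7 (-0.24). In that range and comparison 10.7% of all genes were at least 1.2-fold lower and 12.7% higher. The median log2 ratio of KRT8 over KRT18 was -0.81 in parental cells of 0.5% to 20% mitochondrial UMIs, and -0.65 and -0.79 in thinned single-positive and double-positive cells. With the mitochondrial limit the squared variation of KRT18 was 0.118 over single-positive and 0.153 over double-positive cells. On log2(thinned UMIs + 1), which keeps the counting noise, KRT8 and KRT18 correlated at 0.27, 0.34 and 0.31, and KRT18 and KRT19 at 0.06 in single-positive cells. In the bottom quartile of cells by the G2M list, an alternative chosen after seeing the data, KRT8 and KRT18 had 0.67, 0.78 and 0.63, and KRT18 and KRT19 0.19, 0.25 and 0.16. KRT18 and KRT19 had 0.14 in parental cells with the mitochondrial limit and 0.18 in single-positive cells without barcodes of 50000 UMIs or more, also added after seeing the data. The spread and correlation values count as moved where they shift by more than 1 SD over the 3 libraries. No ratio past 1.2-fold turned its sign, and the cause of the shifts was not tested. Few UMIs limit KRT80 and KRT81, and for KRT81 so does the sequence it shares with KRT86. Summing the counted UMIs of KRT81, KRT83 and KRT86 gave 92, 58 and 94 in parental, single-positive and double-positive cells. The log2 ratios were 0.42 (-0.07 to 0.92) in double-positive against single-positive cells and -0.33 (-0.83 to 0.16) in single-positive against parental cells. In double-positive against parental cells the log2 ratio was 0.09 (-0.34 to 0.52).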

Other observations

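Barcodes outside the cells used also held keratin UMIs. In barcodes with more than 100 but under 6500 UMIs, 358 parental, 298 single-positive and 371 double-positive ones, the 6 members together stood at 6098, 4280 and 4482 CPM, against 7769, 8049 and 7201 CPM in cells. In barcodes with at most 100 UMIs they stood at 6783, 7141 and 6799 CPM. In the first of these sets KRT19 was at 1875 CPM in parental and 1125 and 1154 CPM in single-positive and double-positive barcodes, and KRT81 had 4 UMIs in the parental set and 0 in the others.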
